A study of Mus musculus with 2 samples.

Results

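The 10 genes described here encode the mouse TGF-beta ligands (Tgfb1, Tgfb2, Tgfb3), the latent TGF-beta binding proteins Ltbp1, Ltbp2 and Ltbp3, the receptors Tgfbr1, Tgfbr2 and Tgfbr3, and the TGF-beta-induced matrix protein Tgfbi. They were chosen by symbol from the 27998 genes of the count table, and all 10 were found in both libraries. The cells came from remodelled carotid arteries of male C57BL/6J mice aged 8 weeks, a model of intimal hyperplasia made by drawing a guide wire through the vessel to denude its lining. One single-cell library was made 28 days (4 weeks) and another 14 days (2 weeks) after injury, each from a group of 18 animals according to the series design. All animals were injured, uninjured arteries were not analysed here, and cells cannot be traced to single animals. The labels disagree on the vessel, since the source and design give the carotid artery while the protocol for cell isolation refers to aortic grafts, and the surgery text mentions both carotids. By the protocol, the adventitia was dissected away from the inner layers, and live nucleated cells were sorted after papain digestion. Whether the dissected adventitia was kept for digestion is not stated.

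TGF-beta is secreted as an inactive complex: the ligand stays bound to its cleaved propeptide, which is usually linked to a latent TGF-beta binding protein that anchors it in fibrillin-rich matrix until integrins, proteases or thrombospondin release it. Active ligand is bound by the type II receptor Tgfbr2, which recruits and phosphorylates the type I receptor Tgfbr1, and Tgfbr1 then activates Smad2 and Smad3. Tgfbr3, or betaglycan, is a co-receptor that presents ligand, above all Tgfb2, to Tgfbr2. In arteries the pathway is known for driving matrix synthesis by fibroblasts and smooth muscle cells after injury and for restraining immune cells.

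After filtering, 7422 cells with 72976217 unique molecular identifiers (UMIs, 1 per captured transcript) remained at 4 weeks, and 5152 cells with 71383718 UMIs remained at 2 weeks. Their median depths were 8716 UMIs at 4 weeks and 11752.5 UMIs at 2 weeks, and 8 barcodes occurred in both libraries. The cells formed 30 clusters in 15 named classes, with 6 clusters left numbered. The tissue label was borne out only in part: fibroblast-like cells (2895 at 4 weeks, 990 at 2 weeks) and smooth muscle cell-like cells (77 and 221) were present, but so were thymocyte-like cells (876 and 1749) and parathyroid-like cells (15 and 54), which are not cells of an artery. Macrophage-like cells numbered 156 at 4 weeks and 743 at 2 weeks. Numbered clusters that matter below are cluster 8 (150 and 418 cells), led by Arg1 and Chil3 and carrying both macrophage and monocyte markers, and cluster 19 (106 and 119 cells), led by Tnfrsf11b, Dio2 and Ltbp2 and carrying both pericyte and fibroblast markers. With 1 library at each time no test between times was possible. Levels are counts per 1000000 UMIs of the class (CPM), and brackets give exact 95% Poisson, binomial or conditional binomial intervals, which cover counting error only, not the spread between animals.

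The 3 ligands came from different cells. Tgfb1, the ligand made by most leukocytes, was found in nearly every class, with its highest values in cluster 8 at 4 weeks and in B cell-like cells at 2 weeks. Tgfb2 and Tgfb3 lay mostly in stromal cells, where fibroblast-like cells held most of their UMIs. The same split held at both times.

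Tgfb1 (ENSMUSG00000002603, chr7:25687002-25705077, plus strand, mm10) stood at 283 CPM (259 to 309) in cluster 8 at 4 weeks, against 232 CPM (221 to 244) at 2 weeks. In B cell-like cells it stood at 192 CPM (181 to 204) at 4 weeks and 295 CPM (222 to 384) at 2 weeks, the 2-week value coming from 38 cells. Dendritic cell-like cells had 198 CPM (177 to 221) at 4 weeks and 205 CPM (185 to 227) at 2 weeks. At 4 weeks plasmacytoid dendritic cell-like, dendritic cell-like, B cell-like and lymphatic endothelial cell-like cells had overlapping intervals, so their order could not be told. The first and the last of them also overlapped cluster 8. In macrophage-like cells Tgfb1 had 149 CPM (129 to 172) at 4 weeks and 238 CPM (228 to 248) at 2 weeks, a log2 ratio of -0.67 (-0.89 to -0.45). Lymphatic endothelial cell-like cells had 188 CPM (132 to 260) at 4 weeks and 215 CPM (164 to 277) at 2 weeks, among the upper 5 of 19 levels at both times. At 2 weeks the B cell-like interval overlapped those of several classes, so the highest class could not be told. Among them were macrophage-like cells, cluster 8, lymphatic endothelial cell-like cells and dendritic cell-like cells. At 4 weeks cluster 19, a stromal group, had 128 CPM (109 to 148). Fibroblast-like cells had 38.4 CPM at 4 weeks and 33.4 CPM at 2 weeks, the 17th and 16th of 19 levels of the gene. Because fibroblast-like cells were numerous, they nevertheless held 25.5% of all Tgfb1 UMIs at 4 weeks and 10.7% at 2 weeks. Macrophage-like cells held 3.29% at 4 weeks and 28.8% at 2 weeks, cluster 8 held 8.66% and 21.6%, and B cell-like cells held 19.3% and 0.751%. Such shares follow the numbers of cells captured as well as the level per cell.

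Tgfb2 (ENSMUSG00000039239, chr1:186622792-186705989, minus strand) had its highest value in smooth muscle cell-like cells, at 165 CPM (140 to 193) at 4 weeks and 188 CPM (174 to 204) at 2 weeks. Cluster 19 had 114 CPM (96.7 to 134) at 4 weeks and 158 CPM (141 to 177) at 2 weeks, and lymphatic endothelial cell-like cells had 36.5 CPM (7 UMIs) and 147 CPM (106 to 199.8). At 2 weeks these intervals overlapped that of smooth muscle cell-like cells, so the order could not be told. Fibroblast-like cells had 70.1 CPM (67.4 to 72.8) at 4 weeks and 83.2 CPM (79.5 to 86.9) at 2 weeks. Endothelial cell-like cells reached 128 CPM at 4 weeks, but 1 cell held 47.2% of those 36 UMIs, and the 2-week level was 14.3 CPM. Fibroblast-like cells held 86.9% of the Tgfb2 UMIs at 4 weeks and 64.1% at 2 weeks, while smooth muscle cell-like cells held 5.01% and 20.1%. In 13 of 19 classes at each time Tgfb2 lay under a 10th of its highest level, a range that free RNA in droplets can give. Thymocyte-like cells, which should lack the gene, had 0.868 CPM at 4 weeks and 1.20 CPM at 2 weeks.

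Tgfb3 (ENSMUSG00000021253, chr12:86056745-86079041, minus strand) was highest in cluster 19, with 85.0 CPM (70.1 to 102) at 4 weeks and 138 CPM (122 to 156) at 2 weeks. Fibroblast-like cells had 61.4 CPM at 4 weeks and 60.2 CPM at 2 weeks, and smooth muscle cell-like cells had 59.8 CPM and 75.0 CPM, so the fibroblast-like and smooth muscle cell-like levels could not be told apart at 4 weeks. Among fibroblast-like cells most of the difference lay between clusters. The cluster led by C1qtnf3, Cilp and Thbs4 (cluster 13) had 216 CPM at 4 weeks and 262 CPM at 2 weeks. The other 4 clusters lay between 23.99 and 82.0 CPM at 4 weeks and between 25.4 and 114 CPM at 2 weeks. The log2 ratio of the whole class was 0.03, but within each cluster the value was lower at 4 weeks. That ratio was -0.62 (-1.03 to -0.19) in cluster 10, -0.48 in cluster 3, -0.34 in cluster 5 and -0.28 in cluster 13. In cluster 0 it was -0.08 (-0.42 to 0.28), an interval that includes 0. The part of the different cluster shares in the class value was not tested.

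With each cell thinned to 2700 UMIs, the share of fibroblast-like cells with a Tgfb1 UMI was 8.52% (7.52 to 9.60) at 4 weeks and 8.06% (6.43 to 9.95) at 2 weeks, against 34.2% and 43.7% unthinned. No class was set as lacking Tgfb1, and the lowest thinned shares were 5.17% (1.08 to 14.4) in cluster 23 at 4 weeks and 2% (0.0506 to 10.6) in parathyroid-like cells at 2 weeks, so the fibroblast-like share was not told apart from the lowest class. For Tgfb2 the thinned shares were 14.8% at 4 weeks and 14.0% at 2 weeks (unthinned 41.9% and 58.3%), and in thymocyte-like cells 0.386% and 0.420% (unthinned 0.571% and 1.14%). For Tgfb3 they were 14.5% at 4 weeks and 13.9% at 2 weeks (unthinned 42.1% and 52.3%), and in thymocyte-like cells 0.579% and 0.701% (unthinned 1.6% and 3.20%). The unthinned shares were lower at 4 weeks for all 3 ligands, and the intervals of the thinned shares overlapped between the times. Median depth of fibroblast-like cells was 12813 UMIs at 4 weeks and 22462 UMIs at 2 weeks, and of thymocyte-like cells 3018 and 4618 UMIs.

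**Figure D1:**
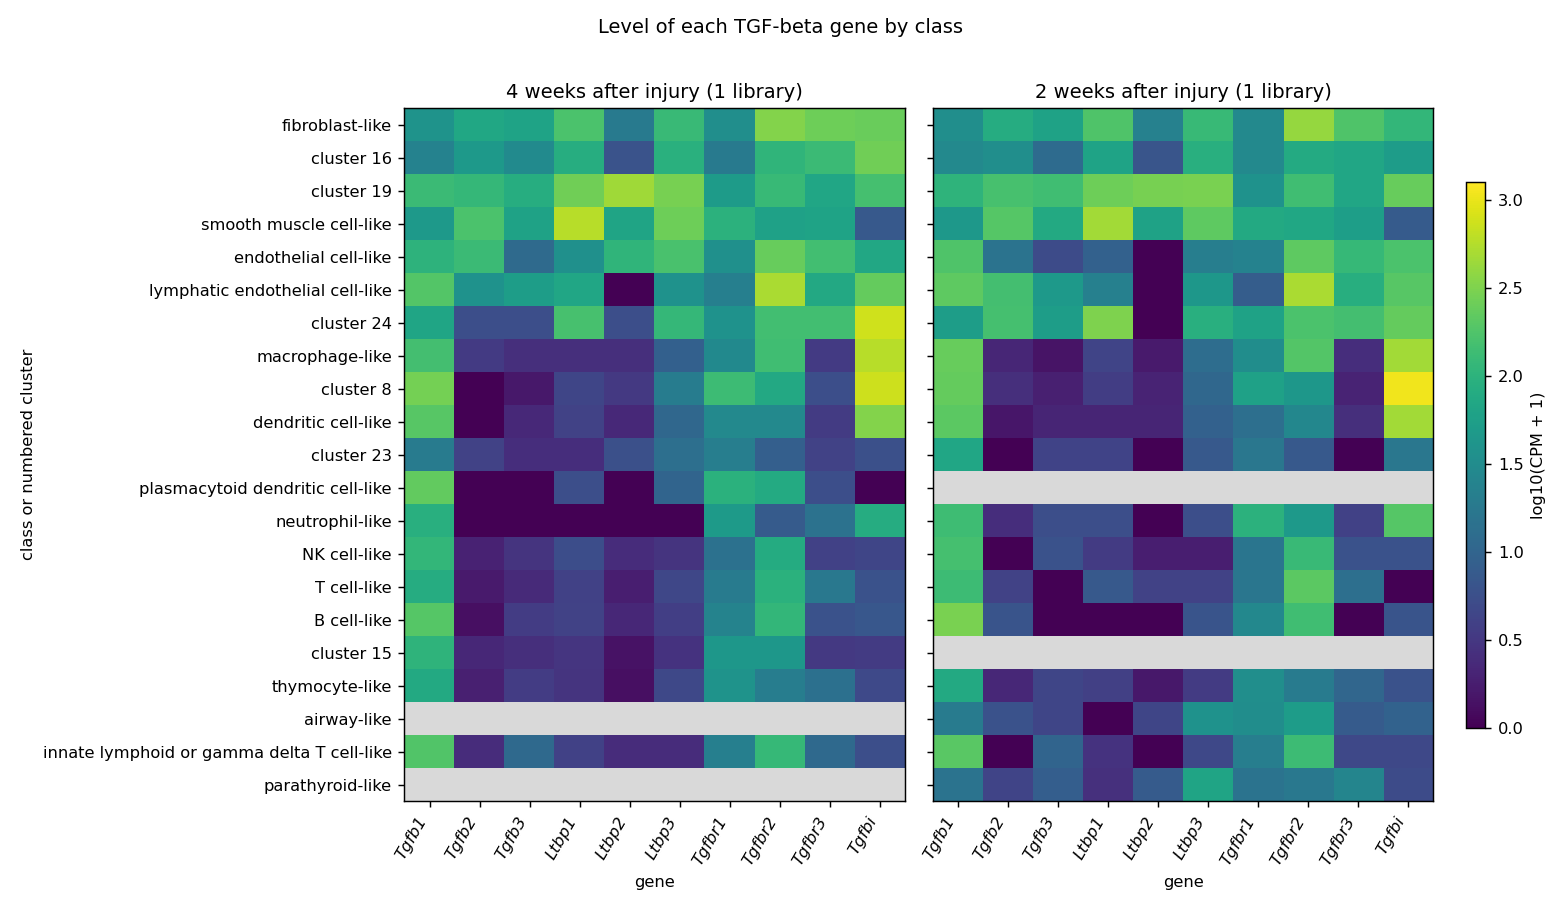
Level of each of the 10 genes (columns) in each class or numbered cluster (rows) as log10(CPM + 1), at 4 weeks (left) and 2 weeks (right), 1 library each. Grey rows had fewer than 20 cells in that library. Tgfb2, Tgfb3 and the Ltbp genes are brightest in the stromal rows at the top, while Tgfb1 is spread over nearly all rows, the immune rows among them.

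Across the 10 classes that had 50 cells or more per library, Tgfb2 and Ltbp1 were the pair of these genes with the most alike pattern (Pearson r = 0.979 of log2(CPM + 1) over 20 class and library values, a description in which points share libraries and depth). The closest of the 10 to Tgfb1 was Tgfbi, with r = 0.320. The promoters of Tgfb1, Tgfb2 and Ltbp1 are printed to set the ligand found in nearly every class beside the stromal pair. Each is the 200 bases before the annotated start, 5′ to 3′ on the gene's strand, from RefSeq on GRCm38.p6, where 8 of the 10 genes had an entry. Capitals mark, on either strand, the GC box GGGCGG, the TATA box TATAAA, the cyclic AMP response element TGACGTCA and the AP-1 site TGACTCA. No 2 of these motifs share letters at the marked places.
Tgfb1 (chr7:25686802-25687001, plus): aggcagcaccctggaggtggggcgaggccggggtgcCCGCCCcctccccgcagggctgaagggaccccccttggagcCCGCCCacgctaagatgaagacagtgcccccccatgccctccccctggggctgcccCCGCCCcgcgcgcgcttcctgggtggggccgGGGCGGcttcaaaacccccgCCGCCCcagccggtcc
Tgfb2 (chr1:186705990-186706189, minus): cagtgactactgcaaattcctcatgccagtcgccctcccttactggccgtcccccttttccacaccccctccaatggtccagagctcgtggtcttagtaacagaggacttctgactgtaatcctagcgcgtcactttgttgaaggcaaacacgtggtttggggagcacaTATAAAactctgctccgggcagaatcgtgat
Ltbp1 (chr17:75005329-75005528, plus): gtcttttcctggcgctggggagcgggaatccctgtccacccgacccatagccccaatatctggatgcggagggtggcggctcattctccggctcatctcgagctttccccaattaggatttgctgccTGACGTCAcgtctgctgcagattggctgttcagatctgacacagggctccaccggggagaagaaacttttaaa
The Tgfb1 window held 5 GC boxes and was 77.5% G and C, while the Tgfb2 window held 1 TATA box, beginning 31 bases before the start, and was 52.5% G and C. The Ltbp1 window shown held 1 cyclic AMP response element and was 56.5% G and C, while a second RefSeq start of Ltbp1 (window chr17:75178581-75178780) held none of the 4 motifs and was 52% G and C. Of all 32851 promoter windows of this length, 31.0% held the GC box, 9.96% the TATA box, 1.47% the cyclic AMP response element and 3.66% the AP-1 site. These matches describe letters only.

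The latent binding proteins were stromal genes with different leading cells. Ltbp1 was highest in smooth muscle cell-like cells, Ltbp2 in cluster 19, and Ltbp3 in cluster 19 and smooth muscle cell-like cells together. In fibroblast-like cells as a whole all 3 differed between the times by less than 1.5-fold. Ltbp2 passed that size, with intervals that exclude 0, in 3 of the 5 fibroblast-like clusters, in opposite directions. In cluster 0 it was also higher by that size, at a log2 ratio of 0.75 (-0.39 to 2.13), an interval that includes 0. That value came from 56 UMIs at 4 weeks, 58.9% of them in 1 cell, and 7 UMIs at 2 weeks.

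Ltbp1 (ENSMUSG00000001870, chr17:75005568-75392512, plus strand), which tethers latent TGF-beta to matrix, had 578 CPM (530 to 629) in smooth muscle cell-like cells at 4 weeks and 472 CPM (448 to 496) at 2 weeks. Cluster 19 had 269 CPM at 4 weeks and 258 CPM at 2 weeks, and fibroblast-like cells had 166 CPM at 4 weeks and 173 CPM at 2 weeks. After thinning, 70.3% (58.5 to 80.3) of smooth muscle cell-like cells at 4 weeks and 61.2% (54.4 to 67.7) at 2 weeks had an Ltbp1 UMI (unthinned 93.5% and 93.2%), against 0.386% and 0.841% of thymocyte-like cells (unthinned 1.26% and 2.74%). Smooth muscle cell-like cells thus led in level, yet held only 7.30% of the Ltbp1 UMIs at 4 weeks and 24.1% at 2 weeks, because fibroblast-like cells held 85.3% and 63.7%. Median depth of smooth muscle cell-like cells was 11728 UMIs at 4 weeks and 14922 UMIs at 2 weeks.

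Ltbp2 (ENSMUSG00000002020, chr12:84783212-84876532, minus strand), a family member that binds fibrillin but not latent TGF-beta, had 453 CPM (418 to 491) in cluster 19 at 4 weeks and 286 CPM (263 to 312) at 2 weeks. It is among the genes that define this cluster, so its height there is a description. Smooth muscle cell-like cells had 63.0 CPM at 4 weeks and 59.4 CPM at 2 weeks, and fibroblast-like cells had 17.3 CPM and 21.8 CPM. Cluster 19 made up 1.43% of kept cells at 4 weeks and 2.31% at 2 weeks, and held 43.6% and 42.1% of all Ltbp2 UMIs. Within fibroblast-like cells the clusters went opposite ways. Cluster 13 had 76.5 CPM at 4 weeks and 37.7 CPM at 2 weeks, a log2 ratio of 1.02 (0.58 to 1.5). In the cluster led by Ptx3 and Tnfaip6 (cluster 5) Ltbp2 stood at 47.3 CPM at 4 weeks and 26.1 CPM at 2 weeks, a log2 ratio of 0.86 (0.59 to 1.12). The cluster led by C7 and Mmp3 (cluster 3) had 11.9 CPM at 4 weeks and 23.4 CPM at 2 weeks, a log2 ratio of -0.98 (-1.38 to -0.57). Among fibroblast-like cells, cluster 5 made up 6.11% at 4 weeks and 48.8% at 2 weeks, and the log2 ratio for the whole class was -0.33 (-0.50 to -0.16). That value moved with the setting, to 0.51 with clusters weighted equally and to -1.08 when the libraries were clustered separately.

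Ltbp3 (ENSMUSG00000024940, chr19:5740904-5758532, plus strand), which also binds latent TGF-beta, had 288 CPM (260 to 318) in cluster 19 at 4 weeks and 298 CPM (273 to 323) at 2 weeks. Smooth muscle cell-like cells had 261 CPM (229 to 296) at 4 weeks and 212 CPM (196 to 228) at 2 weeks, so the 2 leading groups overlapped at 4 weeks and not at 2 weeks. Fibroblast-like cells had 125 CPM at 4 weeks and 122 CPM at 2 weeks, a log2 ratio of 0.03 (-0.04 to 0.10).

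**Figure D2:**
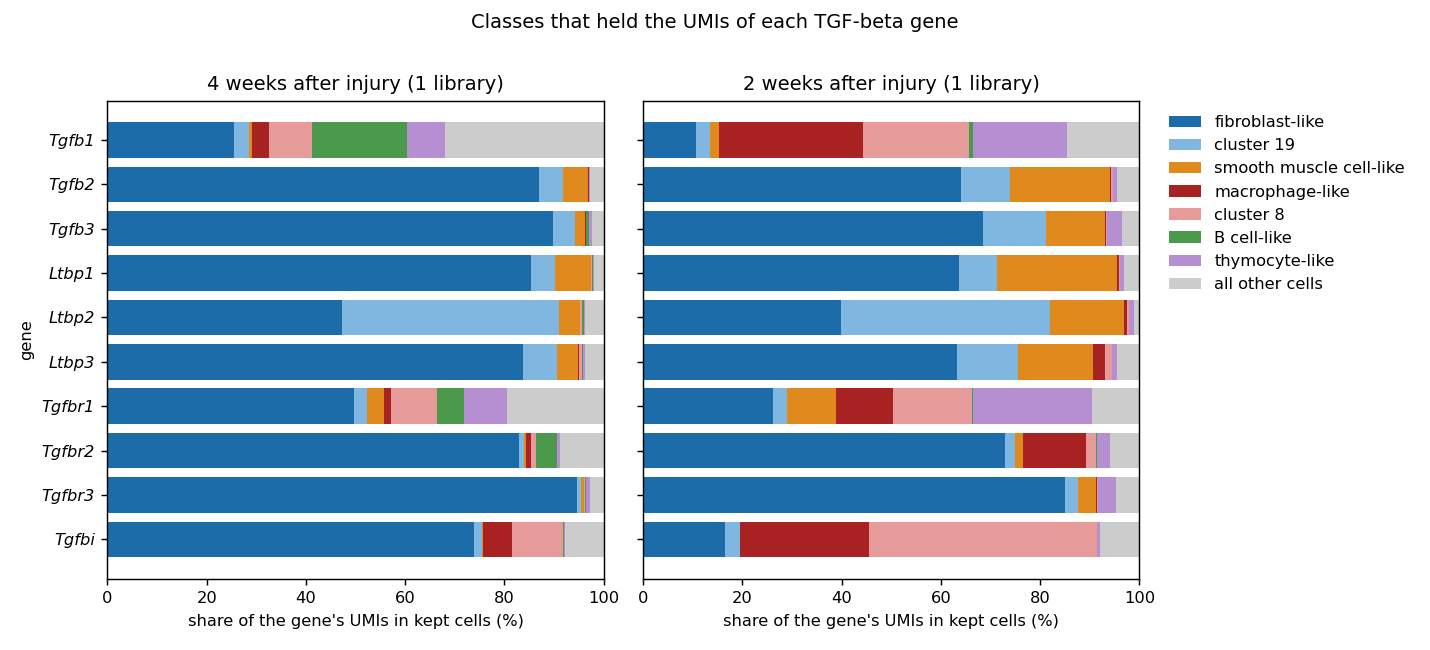
Share of each gene's UMIs held by each class at 4 weeks (left) and 2 weeks (right), 1 library each. Each bar adds up to all UMIs of the gene in kept cells. Fibroblast-like cells hold more than any other class of Tgfb2, Tgfb3, Ltbp1, Ltbp3, Tgfbr2 and Tgfbr3 at both times, and for Tgfbi they hold 74.0% at 4 weeks and 16.6% at 2 weeks.

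The 3 receptors had different leading cells. Tgfbr2 was found at its highest levels in lymphatic endothelial cell-like and fibroblast-like cells and Tgfbr3 in fibroblast-like cells. Tgfbr1 had its highest value in cluster 8 at 4 weeks and in neutrophil-like cells at 2 weeks. Between the times the receptors stayed within 1.5-fold in fibroblast-like cells, apart from Tgfbr3, which was higher at 4 weeks.

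Tgfbr1 (ENSMUSG00000007613, chr4:47353222-47414931, plus strand), the signalling kinase, had 134 CPM (118 to 152) in cluster 8 at 4 weeks and 58.5 CPM (52.9 to 64.5) at 2 weeks, a log2 ratio of 1.20 (0.96 to 1.43). Smooth muscle cell-like cells had 96.2 CPM (77.3 to 118) at 4 weeks and 75.3 CPM (66.2 to 85.3) at 2 weeks. Neutrophil-like cells had 96.6 CPM (74.4 to 123) at 2 weeks, and at 4 weeks 47.6 CPM from only 7 UMIs in 27 cells. Their 2-week interval overlapped that of smooth muscle cell-like cells, so the highest class at 2 weeks could not be told. Plasmacytoid dendritic cell-like cells had 95.04 CPM (58.8 to 145) at 4 weeks, from 21 UMIs in 20 cells. The order thus differed between the libraries: cluster 8 had the highest value at 4 weeks, with an interval that just met that of smooth muscle cell-like cells and overlapped that of plasmacytoid dendritic cell-like cells, and lay below smooth muscle cell-like cells at 2 weeks. In fibroblast-like cells the gene stood at 33.1 CPM at 4 weeks and 27.7 CPM at 2 weeks, and in dendritic cell-like cells at 28.0 CPM (45 UMIs) and 12.6 CPM (23 UMIs).

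Tgfbr2 (ENSMUSG00000032440, chr9:116084293-116175360, minus strand), the ligand-binding receptor, had 512 CPM (415 to 623) in lymphatic endothelial cell-like cells at 4 weeks and 510 CPM (430 to 601) at 2 weeks, from 26 and 24 cells. Fibroblast-like cells had 336 CPM (330 to 342) at 4 weeks and 411 CPM (403 to 420) at 2 weeks, a log2 ratio of -0.29 (-0.33 to -0.25). Within them the Pi16-bearing cluster 0 had 461 CPM at 4 weeks and 484 CPM at 2 weeks and cluster 5 had 410 and 481 CPM, while clusters 3, 10 and 13 lay between 193 and 246 CPM at 4 weeks and between 180 and 263 CPM at 2 weeks. Lower values by at least 1.5-fold at 4 weeks were seen in some lymphoid classes. T cell-like cells had 93.99 CPM at 4 weeks and 207 CPM at 2 weeks (51 cells), a log2 ratio of -1.14 (-1.51 to -0.75). NK cell-like cells had 80.3 CPM at 4 weeks and 126 CPM at 2 weeks, a log2 ratio of -0.65 (-0.98 to -0.32). The ratio was 0.08 (-0.24 to 0.39) in thymocyte-like cells and -0.17 (-0.65 to 0.32) in innate lymphoid or gamma delta T cell-like cells. Cluster 8 went the other way, with 72.8 CPM (128 UMIs) at 4 weeks and 42.3 CPM (288 UMIs) at 2 weeks, a log2 ratio of 0.78 (0.47 to 1.09).

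Tgfbr3 (ENSMUSG00000029287, chr5:107106570-107289629, minus strand) had 262 CPM (257 to 267) in fibroblast-like cells at 4 weeks and 173 CPM (168 to 178) at 2 weeks, a log2 ratio of 0.60 (0.55 to 0.65). These cells held 94.7% of the Tgfbr3 UMIs at 4 weeks and 84.9% at 2 weeks. After thinning, 49.4% (47.5 to 51.2) of them at 4 weeks and 36.9% (33.9 to 40.0) at 2 weeks had a Tgfbr3 UMI (unthinned 88.6% and 89.6%), against a share of 1.91% in B cell-like cells at 4 weeks (unthinned 2.40%) and 0 of 31 such cells at 2 weeks, which allows up to 9.68% (unthinned 0%). The median depth of B cell-like cells was 4467.5 UMIs at 4 weeks and 4632.5 UMIs at 2 weeks. By cluster the log2 ratio of Tgfbr3 was 0.82 in cluster 13, 0.62 in cluster 3, 0.32 in cluster 5, 0.26 in cluster 0 and -0.01 in cluster 10, and the mean with clusters weighted equally was 0.40.

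Fibroblast-like cells with at least 1 UMI of both Tgfbr1 and Tgfbr2, the pair that forms the signalling receptor, made up 4.35% (3.63 to 5.16) at 4 weeks and 3.98% (2.84 to 5.40) at 2 weeks after thinning, and 30.2% and 42.9% unthinned. In cluster 8 the thinned shares were 9.15% (4.97 to 15.1) at 4 weeks and 2.44% (1.18 to 4.45) at 2 weeks, and the unthinned shares 39.3% and 20.3%. Among the lowest were NK cell-like cells, with 0 of 254 thinned cells at 4 weeks, which allows up to 1.18%, and 0.685% at 2 weeks (unthinned 3.85% and 6.80%, median depths 7303 and 7396 UMIs). In cluster 8 the intervals did not overlap between the times, at median depths of 10842 UMIs at 4 weeks and 14686 UMIs at 2 weeks.

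Tgfbi (ENSMUSG00000035493, chr13:56609523-56639562, plus strand), a secreted integrin-binding matrix protein first cloned as a TGF-beta-induced gene, showed the widest shift in source. At 4 weeks fibroblast-like cells held 74.0% (73.2 to 74.7) of its UMIs, against 16.6% (16 to 17.1) at 2 weeks. Cluster 8 held 10.2% at 4 weeks and 45.9% at 2 weeks, and macrophage-like cells held 5.89% and 26.0%. As classes, these 2 myeloid groups still had a higher level than fibroblast-like cells at both times. Cluster 8 had 734 CPM (695 to 775) at 4 weeks and 1070 CPM (1046 to 1095) at 2 weeks, a log2 ratio of -0.54 (-0.63 to -0.46). Macrophage-like cells had 587 CPM at 4 weeks and 465 CPM at 2 weeks, a log2 ratio of 0.34 (0.22 to 0.45). Fibroblast-like cells had 245 CPM (240 to 250) at 4 weeks and 112 CPM (107 to 116) at 2 weeks, a log2 ratio of 1.13 (1.07 to 1.20). Smooth muscle cell-like cells were near background, at 6.41 CPM at 4 weeks and 6.74 CPM at 2 weeks, beside 3.82 and 5.11 CPM in thymocyte-like cells.

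The higher Tgfbi level was seen in 4 of the 5 fibroblast-like clusters. Cluster 13 had 587 CPM at 4 weeks and 214 CPM at 2 weeks, a log2 ratio of 1.46 (1.28 to 1.65). Cluster 0 had 67.3 CPM at 4 weeks and 26.0 CPM at 2 weeks, a log2 ratio of 1.37 (1.06 to 1.71), and cluster 3 had 463 CPM at 4 weeks and 257 CPM at 2 weeks, a log2 ratio of 0.85 (0.75 to 0.95). The cluster led by Cxcl13 and Penk (cluster 10) had a log2 ratio of 0.56 (0.30 to 0.83). In cluster 5 Tgfbi stood at 67.4 CPM at 4 weeks and 83.1 CPM at 2 weeks, a log2 ratio of -0.30 (-0.50 to -0.11). Clusters 3 and 13 had a higher Tgfbi level than clusters 0 and 5 at both times, and with the 5 clusters weighted equally the mean log2 ratio was 0.79. Markers of macrophages, the cells with more Tgfbi, were lower by any amount in fibroblast-like cells at 4 weeks for 9 of 10 genes, none of them at 0. Their summed level was 107 CPM at 4 weeks and 158 CPM at 2 weeks, a log2 ratio of -0.56, beside a median of 0.01 over all genes. The part of RNA from myeloid cells in the Tgfbi ratio of fibroblast-like cells was not tested. The thinned share of the class with a Tgfbi UMI was 33.8% (32.1 to 35.6) at 4 weeks and 20.8% (18.3 to 23.5) at 2 weeks (unthinned 61.8% and 56.5%), against 1.16% and 2.38% of thymocyte-like cells (unthinned 2.51% and 4.97%).

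**Figure D3:**
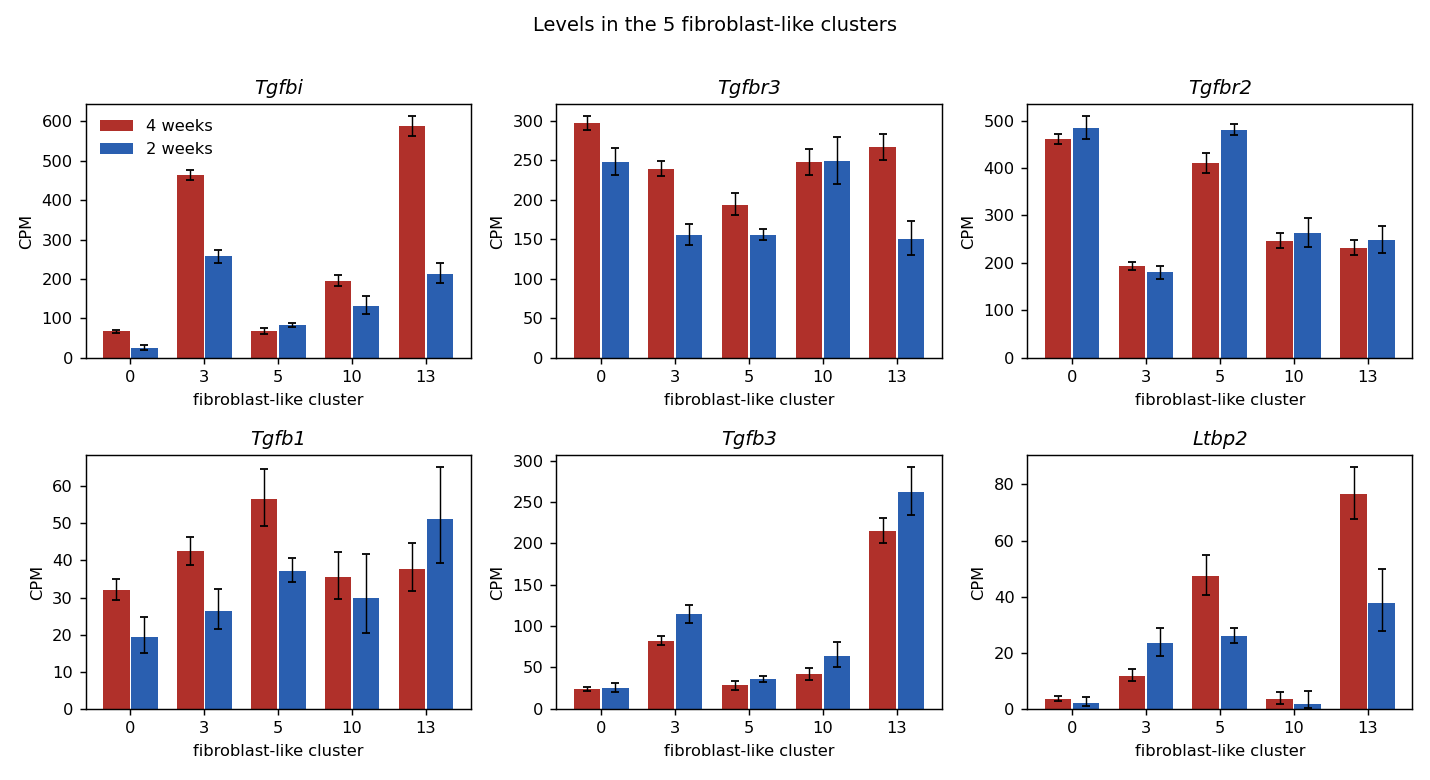
Levels of 6 of the genes in CPM in the 5 fibroblast-like clusters at 4 weeks (red, left bar) and 2 weeks (blue, right bar), 1 library each, with exact 95% Poisson intervals. Tgfbi, Tgfb3 and Ltbp2 differ more between clusters than between times, and Tgfbi is higher at 4 weeks in each cluster except cluster 5.

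Counted over the 10 genes, 2 (Tgfbr3 and Tgfbi) were at least 1.5-fold higher in fibroblast-like cells at 4 weeks, beside 5.96% of the 13745 genes with at least 20 UMIs there, and 0 were at least 1.5-fold lower, beside 10.4%. Their median log2 ratio was 0.03, against 0.01 over all genes. With each cell weighted equally, with clusters weighted equally or with finer clusters, Tgfbr3 fell under 1.5-fold and 1 gene was counted. In cluster 19, 1 of 10 was higher (Ltbp2, log2 ratio 0.66, 0.49 to 0.83), beside 7.64% of all genes, and 2 were lower, beside 10.5%: Tgfb3 at -0.70 (-1.03 to -0.38) and Tgfbi at -0.67 (-0.92 to -0.43). In smooth muscle cell-like cells 0 of 10 were higher, beside 9.57%, and 0 were lower, beside 9.16%, at 77 cells at 4 weeks.

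In macrophage-like cells 6 of the 10 genes had at least 20 UMIs. Of these 0 were higher at 4 weeks, beside 8.68% of all genes, and 2 were lower, beside 16.5%. One was Tgfb1, and the other was Ltbp1 with only 2 UMIs at 4 weeks and 29 at 2 weeks, an interval that includes 0 and a level under a 10th of its highest class. The Tgfb1 call rests on where the class ends: in cluster 4, the larger of its 2 clusters, the log2 ratio was -0.51 (-0.74 to -0.29), and the call was lost when cluster 8 was joined to the class. In cluster 8 on its own 6 genes had enough UMIs, of which 3 were higher, beside 12.2% of all genes, and 0 were lower, beside 10.2%. The 3 were Tgfbr1, Tgfbr2 and Ltbp3, the last at 18.8 CPM at 4 weeks and 9.85 CPM at 2 weeks, under a 10th of its highest class. Fibroblast markers were also higher by any amount in cluster 8 at 4 weeks for 7 of 9 genes, none of them at 0. Their summed level was 527 CPM at 4 weeks and 396 CPM at 2 weeks, a log2 ratio of 0.41, beside a median of 0.07 over all genes. The part of RNA from fibroblast-like cells in the ratios of Tgfbr1, Tgfbr2 and Ltbp3 was not tested.

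**Figure D4:**
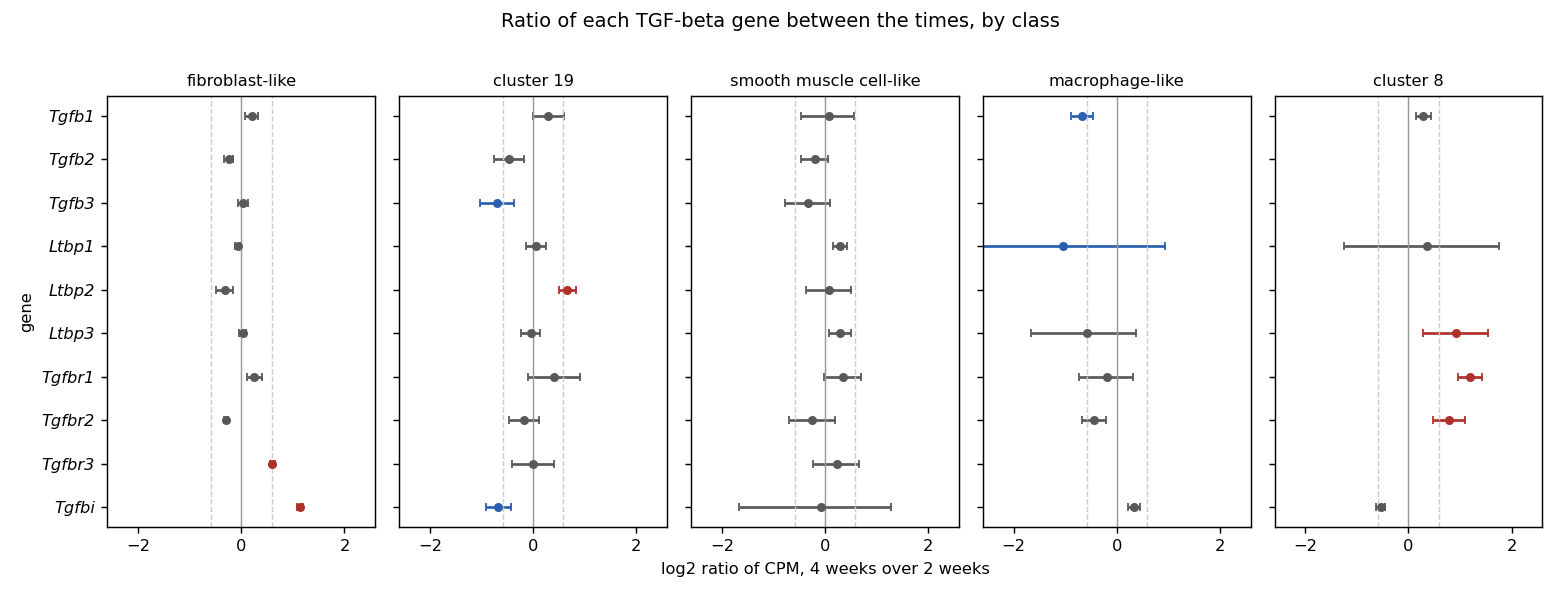
Log2 ratio of CPM, 4 weeks over 2 weeks, of each gene with at least 20 UMIs in 5 groups of cells, with exact 95% conditional binomial intervals (counting error only). Dashed lines mark 1.5-fold, red points are at least that much higher and blue points at least that much lower at 4 weeks. Tgfbi and Tgfbr3 stand out in fibroblast-like cells, and Tgfbr1 and Tgfbr2 in cluster 8.

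The rest of the pathway was described with 5 lists of 55 genes, all present in the table. In fibroblast-like cells the list of response genes, which holds classical TGF-beta targets, was lower at 4 weeks for 12 of 14 members, beside 10.4% of all genes, with a median log2 ratio of -1.29, against 0.01 over all genes. Members with wide ratios were Acta2, the smooth muscle actin of myofibroblasts, at 14.6 CPM at 4 weeks and 78.5 CPM at 2 weeks, and Cthrc1, a secreted protein of activated fibroblasts, at 75.6 CPM at 4 weeks and 395 CPM at 2 weeks. Tagln, an actin-binding protein, had 9.65 CPM at 4 weeks and 36.4 CPM at 2 weeks. Both Acta2 and Tagln stood here at under a 10th of their top class. Of 9 smooth muscle cell markers, 8 were lower by any amount in fibroblast-like cells at 4 weeks, with none at 0. Their summed level was 53.9 CPM at 4 weeks and 172 CPM at 2 weeks. Both the count and the sum include Acta2 and Tagln, which gave much of the sum, so they are not separate from the 2 ratios. The part of RNA from smooth muscle cell-like cells in the 2 ratios was not tested. Ctgf, a matricellular protein, was the exception in direction in the class as a whole, at 263 CPM at 4 weeks and 192 CPM at 2 weeks. That log2 ratio was 0.45 (0.40 to 0.50), the direction that Tgfbi, often named among such targets, also had. By cluster Ctgf was higher by 1.5-fold only in cluster 13, at 0.96. Its log2 ratio was -0.77 in cluster 0, -0.47 in cluster 5, -0.29 in cluster 3 and 0.006 in cluster 10. Cluster 13 made up 9.95% of the class at 4 weeks and 5.35% at 2 weeks, and the part of such shares was not tested.

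Within the fibroblast-like clusters most response genes were lower too, with medians nearer to 0 than in the class as a whole. In cluster 0, 8 of 13 were lower, beside 8.19% of all genes, and 0 higher, beside 5.43%, with a median log2 ratio of -0.84. Cluster 3 had 10 of 14 lower, beside 8.29%, and 0 higher, beside 6.21%, and a median of -0.88. In cluster 5, 8 of 14 were lower, beside 9.78%, with a median of -0.66, and 2 were higher, beside 4.78%: Timp1, an inhibitor of matrix metalloproteinases, at 896 CPM at 4 weeks and 381 CPM at 2 weeks, and Fn1, fibronectin, at 5617 and 3618 CPM. Cluster 10 had 8 of 13 lower, beside 8.04%, and 0 higher, beside 9.51%, and a median of -0.62. In cluster 13, 9 of 14 were lower, beside 12.1%, with a median of -0.71, and 1 was higher, beside 11.9%: Ctgf, at 1322 CPM at 4 weeks and 681 CPM at 2 weeks. The part of the different cluster shares in the ratio for the whole class was not separated further. In cluster 8 the list had 8 of 13 lower, beside 10.2% of all genes, but Tagln, Acta2, Postn and Col1a1, its widest members, all lay there under a 10th of their highest class. In smooth muscle cell-like cells 1 of 12 was lower, a share near the 9.16% of all genes, and 0 were higher, with a median of -0.26. The 1 was the collagen gene Col1a1, at 396 CPM at 4 weeks and 654 CPM at 2 weeks. Next in size there were Col3a1, another collagen gene, at 1003 and 1415 CPM, Postn, the matricellular protein periostin, at 567 and 770 CPM, and Lox, which crosslinks collagen, at 134 and 178 CPM. In cluster 19, 2 of 13 were higher, beside 7.64% of all genes, and 0 lower. The 2 were Timp1, at 599 CPM at 4 weeks and 277 CPM at 2 weeks, and Fn1, at 2257 and 1161 CPM. Under 1.5-fold, Cyr61, a matricellular protein, had 342 CPM at 4 weeks and 498 CPM at 2 weeks, and Col3a1 had 4283 and 5822 CPM.

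Of the list for the latent complex and its activation, 7 of 19 were lower in fibroblast-like cells, beside 10.4% of all genes, and 1 was higher, beside 5.96%, with a median of -0.45. The 1 higher was Ltbp4, a further latent TGF-beta binding protein, at 414 CPM at 4 weeks and 252 CPM at 2 weeks. Its log2 ratio was 0.72 (0.67 to 0.76). Fbn2, a fibrillin of developing matrix, had 2.46 CPM at 4 weeks and 29.99 CPM at 2 weeks, a log2 ratio of -3.61 (-3.93 to -3.29). Thbs1, thrombospondin, which can activate latent TGF-beta, had 12.3 CPM at 4 weeks and 65.3 CPM at 2 weeks, and Fbn1, the fibrillin to which Ltbp proteins bind, had 532 and 1236 CPM. Mmp9 was the other of the 4 widest, at 1.31 CPM at 4 weeks and 2.80 CPM at 2 weeks. In fibroblast-like cells Thbs1 and Mmp9 both stood at under a 10th of their top class, a level that free RNA can give. Thbs1 was lower in myeloid cells too, at 175 CPM at 4 weeks and 663 CPM at 2 weeks in cluster 8, and at 6.32 and 81.8 CPM in macrophage-like cells. In fibroblast-like cells as a whole both fibrillins were lower by at least 1.5-fold, while Ltbp1 and Ltbp3 were not, and Ltbp2 differed in direction between clusters. By cluster, 3 of 16 listed genes were lower in cluster 0, beside 8.19% of all genes, and 3 of 16 in cluster 3, beside 8.29%. In cluster 5 it was 4 of 18, beside 9.78%, in cluster 10 3 of 14, beside 8.04%, and in cluster 13 8 of 17, beside 12.1%. Medians were -0.13, -0.23, -0.23, -0.09 and -0.39 in that order. In each cluster 1 or 2 were higher, beside 4.78% to 11.9%. The part of cluster shares in the class ratios was not tested.

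Downstream, the 6 genes of SMAD signalling had 0 higher, beside 5.96% of all genes, and 0 lower, beside 10.4%, in fibroblast-like cells, with a median of -0.03. Tgif1, a transcriptional repressor of the pathway, came nearest at 12.1 CPM at 4 weeks and 18.2 CPM at 2 weeks, a log2 ratio of -0.58 (-0.78 to -0.39). Zfyve9, which anchors Smads near the receptor, had a log2 ratio of 0.34, Sp1, a transcription factor that acts with Smads, one of 0.28, and Smad3 one of -0.06. Of the 8 feedback inhibitors 1 was lower, near the share over all genes, and 0 were higher, the 1 being Skil, a corepressor of Smad proteins, at 59.1 CPM at 4 weeks and 97.9 CPM at 2 weeks. Pmepa1, an inhibitor induced by TGF-beta, had 734 CPM at 4 weeks and 596 CPM at 2 weeks, a log2 ratio of 0.30 (0.27 to 0.33). The inhibitory Smad6 had a log2 ratio of 0.29 and the ubiquitin ligase Smurf1 one of -0.27. Among 8 accessory receptors and binding proteoglycans 2 were higher, beside 5.96% of all genes, and 1 was lower, beside 10.4%. The collagen-binding proteoglycan Fmod had 16.2 CPM at 4 weeks and 6.29 CPM at 2 weeks, the co-receptor Cd109, which limits TGF-beta signalling, had 28.6 and 14.6 CPM, and Bgn, a proteoglycan, had 1210 and 2028 CPM. Dcn, decorin, which can bind TGF-beta, had 14545 and 10188 CPM, a log2 ratio of 0.51 (0.51 to 0.52).

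**Figure D5:**
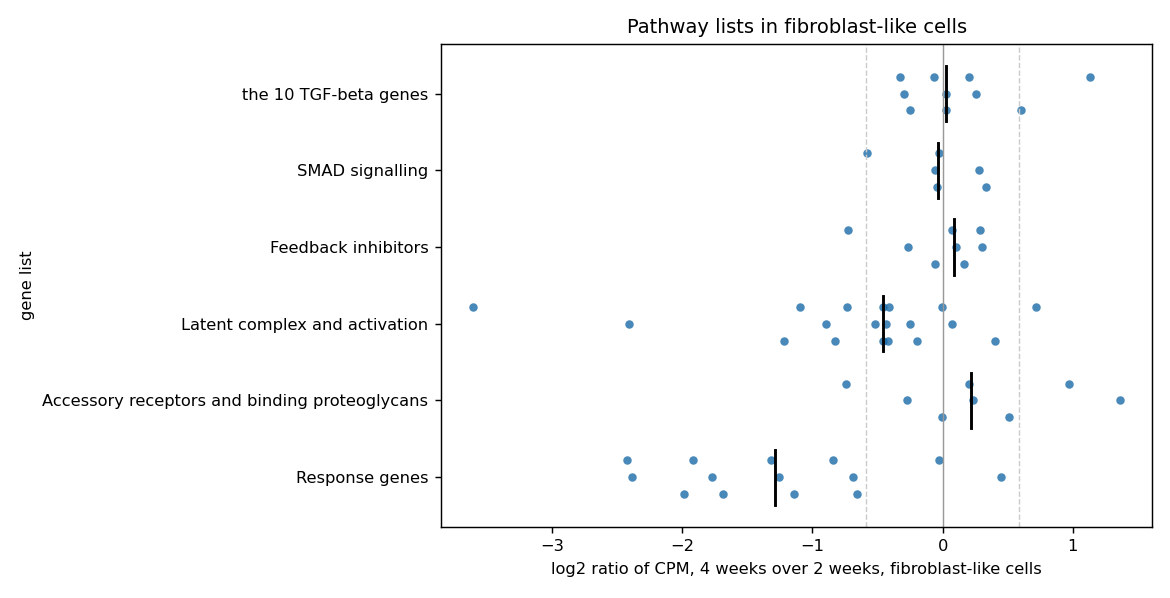
Log2 ratio of CPM in fibroblast-like cells, 4 weeks over 2 weeks, for each of the 10 TGF-beta genes and each gene of 5 pathway lists with at least 20 UMIs. Points are genes, black bars are list medians and dashed lines mark 1.5-fold. The ligands, the Ltbp genes, Tgfbr1 and Tgfbr2 lie within 1.5-fold and Tgfbr3 and Tgfbi beyond it, while the response genes have a median of -1.29.

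The genes whose class patterns were most alike, by Pearson r over the same 20 values, were Ehd2, Gata6 and Rbms3 for Tgfb2 (0.988, 0.987 and 0.984) and Ehd2, Fxyd1 and Pdzrn3 for Ltbp1 (0.989, 0.988 and 0.986). For Ltbp2 they were Mgp, Tnfrsf11b and Crispld1 (0.976, 0.976 and 0.975), for Ltbp3 Lix1l, Fads3 and Nenf (0.970, 0.969 and 0.968), and for Tgfb3 Plod2, Nbea and Fat1 (0.969, 0.967 and 0.965). Tgfbi lay nearest to Gda, Ctsz and Rab7b (0.971, 0.963 and 0.959), and Tgfbr3 nearest to Sptbn1, Fam171b and Sdc2 (0.938, 0.935 and 0.934). Looser matches were found for Tgfb1 with Ptpn1, Crlf2 and Arpc3 (0.925, 0.911 and 0.885), for Tgfbr1 with Gclm, Dync1i2 and Ndufa7 (0.884, 0.879 and 0.845) and for Tgfbr2 with Cd55, Ypel3 and Iigp1 (0.870, 0.865 and 0.849).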

How the data were processed

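The deposited files hold raw UMI counts for each gene in each barcode. Per the file headers the authors counted with Cell Ranger 4.0.0, and the genome build was mm10 per the submitters' processing notes. Gene positions come from GENCODE M21, 1-based. Members and gene lists were chosen with earlier results of these data known, and the rule that names clusters was set after clusters had been seen.

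Work was done in Python 3.11.15 with scanpy 1.11.5, leidenalg 0.10.2, scipy 1.17.1 and numpy 2.4.6. Barcodes under 300 genes or 500 UMIs, or above 10% mitochondrial UMIs, were dropped, and the highest Scrublet scores were removed at 0.8% per 1000 barcodes (587 barcodes at 4 weeks, 275 at 2 weeks). Both libraries were clustered together (2000 variable genes, 30 components, 15 neighbours, Leiden resolution 1, no batch correction). A cluster took a class name with at least 3 markers and 50% of that list at 2-fold and in 10% of cells, leading other lists by 10 points except between nested lists (smooth muscle cell and pericyte, the 2 endothelial lists, macrophage and monocyte, T cell and thymocyte). It stayed numbered if another list had more markers among its top 10 genes, which was so for cluster 8. A cluster far shallower than its libraries also needed at least 1 of its markers among those genes. One small macrophage-like cluster of shallow cells (41 at 4 weeks, 62 at 2 weeks) is led by the erythroid gene Alas2.

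UMIs were summed per library and class. Levels need 20 cells, ratios 50 cells in each library, and calls 20 UMIs over both libraries and 1.5-fold. A count of 0 was read as allowing 3 counts, also per library in a ratio. All 10 members are named. So are the 4 genes with the widest ratio per list and class whose count is given (not per fibroblast-like cluster), from 50 UMIs on, and the 3 genes most like each member, apart from 1 list gene whose values are not reported here, while genes naming clusters were chosen after their values were seen. The ratio calculation was tested on simulated data. Alternatives covered filters, clustering, scaling, weighting, UMI minimum and the fold used for calls.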

Additional observations from a re-analysis of the deposited data

Results flagged for a closer look

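Some of the genes went opposite ways in different cells by at least 1.5-fold, with intervals that exclude 0, and the difference between the cells was not tested. The log2 ratio of Tgfb1, 4 weeks over 2 weeks, was 0.72 in cluster 0, 0.69 in cluster 3 and 0.60 in cluster 5, all fibroblast-like, and -0.67 in macrophage-like and -0.70 in T cell-like cells. The macrophage-like value ranged from -0.76 to 0.03 over the other settings and was -0.51 in cluster 4 alone. That of Tgfbr2 was 0.78 in cluster 8, but -1.14 in T cell-like and -0.65 in NK cell-like cells. Ltbp2 stood at 1.02 in cluster 13, 0.86 in cluster 5 and 0.66 in cluster 19, against -0.98 in cluster 3. Tgfbi stood at 1.13 in fibroblast-like cells as a whole, with 1.46 in cluster 13, 1.37 in cluster 0 and 0.85 in cluster 3, against -0.67 in cluster 19.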

How the results depend on the processing

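Of 240 log2 ratios recomputed for the 10 genes under other settings, 198 had the sign of the value reported and 67 lay outside its counting interval. Of 40 for genes called at 1.5-fold, 23 kept that size and direction. In fibroblast-like cells the count of higher genes was 2, and 1 with each cell weighted equally, with clusters weighted equally, at resolution 2 or with calls at 2-fold. The count of lower genes was 0, and 1 when the libraries were clustered separately. Tgfbi ranged from 0.79 to 1.43 and Tgfbr3 from 0.40 to 0.65, while Ltbp2 ranged from -1.08 to 0.51. Macrophage-like cells depended most on the setting. Their lower genes numbered 2, but 1 with the median-of-ratios size factor, a minimum of 100 UMIs, calls at 2-fold or a mitochondrial limit of 5%. They numbered 0 without doublet removal, with at least 1000 genes, at resolution 0.5 or 2, and with cluster 8 joined, a setting added after the data were seen. Their higher genes numbered 0, but 1 with each cell weighted equally and 4 with a minimum of 1 UMI, which admits genes of a few UMIs. They numbered 2 without doublet removal, at the 5% mitochondrial limit, with at least 1000 genes, at resolution 0.5 or 2, and with cluster 8 joined. Tgfb1 there turned round, to 0.0296 without doublet removal and 0.0169 at the 5% limit. The cause was not tested. In smooth muscle cell-like cells the lower genes numbered 0, and 1 without doublet removal, and the higher genes 0, and 1 with each cell weighted equally. When the libraries were clustered separately there were too few smooth muscle cell-like cells for a ratio. Other settings left these counts as reported. No paired analysis was possible because each time had 1 library. With 1 library per time, the animals' spread is unknown, and differences of dissection, digestion or capture between the libraries cannot be told apart from time.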

Other observations

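Cluster 24, a group of 32 cells at 4 weeks and 43 cells at 2 weeks led by Apod, was too small for a ratio. Its Tgfbi level was 760 CPM (648 to 885) at 4 weeks and 234 CPM (193 to 280) at 2 weeks, and at 4 weeks it stood beside cluster 8 as the highest of the 19 groups. Its Tgfb2 level was 4.63 CPM (1 UMI) at 4 weeks and 152 CPM (76 UMIs) at 2 weeks, when 1 cell held 25% of those UMIs, and its Ltbp1 level was 157 CPM and 312 CPM.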
